A study of Oryza sativa with 4 samples.

Results

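Long broad regions are stretches of 1000 bp or more in which the OsNF-YB1-GFP ChIP library of a rice line was enriched over the input library of the same line, and which held at least 1 narrow peak of that line. They were chosen by their length and by an overlap of at least 1 bp with a narrow peak. Of the 19082 broad regions of both lines, 193 met this rule, or 1.01%. Line 16 gave 156 of its 12272 broad regions (1.27%) and line 22 gave 37 of its 6810 (0.543%). Broad regions of the same line that held a narrow peak but were shorter than 1000 bp, 2158 in line 16 and 786 in line 22, are called short regions here and served for comparison. A further 408 regions of line 16 and 176 of line 22 were 1000 bp or longer but held no narrow peak, and did not meet the rule.

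The chromatin came from caryopsis coats, the outer layers of the developing grain with the aleurone and without its starchy core and germ, at 8 to 12 days after fertilization (DAF). The plants were japonica rice (ZH11) of 2 independent homozygous transgenic lines, 16 and 22, that carried pUbi:OsNF-YB1-GFP. Each line gave 1 library of DNA immunoprecipitated with an anti-GFP antibody and 1 library of input DNA, and the DNA of each library was pooled from 4 ChIP experiments. The ubiquitin promoter drives the fusion in most cell types, whereas the endogenous gene is known from the aleurone layer, and no library from plants without the fusion was used here. With 1 ChIP library per line there is no replicate within a line, and the lines are the only biological replicates. All intervals given with shares below are 95% intervals (Wilson for a share, Newcombe for a difference) that cover counting error over regions only, and neighbouring regions are not independent.

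OsNF-YB1 belongs to the B subunits of the trimeric transcription factor NF-Y. Structures of the mammalian complex show the B and C subunits wrapped around each other like the core histones H2B and H2A and bending DNA without regard to its sequence, and the A subunit inserting into the minor groove at CCAAT. Rice has many genes for each subunit, and this one is known from the endosperm for its role in grain filling. In peak calling a narrow peak marks a stretch of stacked tags that passes a strict cutoff, and each was listed here with 1 summit. A broad region joins neighbouring stretches that pass a looser cutoff. A long region can therefore hold several summits or 1 summit with a long weaker flank. Positions are those of the rice genome MSU7.0. Genes and motifs at these regions were not analysed here, for want of a sequence or annotation of this build.

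After removal of duplicates the ChIP libraries held 21973755 tags in line 16 and 21297446 in line 22, and the input libraries 20143149 and 21994210. In each line the larger library was scaled down to the smaller, so a ChIP tag counted 0.917 in the pileup of line 16 and 1 in that of line 22. All pileups of line 16 divided by 0.917 were whole numbers within 0.02, and summit heights are therefore also given as tags.

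The long regions of the lines were alike in length. Their median was 1249.5 bp in line 16, with quartiles of 1098 and 1476.75 bp and a highest value of 3859 bp. In line 22 the median was 1260 bp, with quartiles of 1089 and 1471 bp and a highest value of 2527 bp. Short regions had medians of 298.5 and 259 bp. Most long regions lay close to the limit. A length of 1500 bp or more was reached by 38 of 156 in line 16 and 9 of 37 in line 22, and 2000 bp or more by 9 and 2.

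Just inside the limit in line 16 were chr6:24261497-24262503 with 1007 bp, chr10:7799685-7800695 with 1011 bp and chr9:4474987-4476001 with 1015 bp. Just outside it lay chr12:11402529-11403527 with 999 bp, chr3:20569702-20570687 with 986 bp and chr12:24965527-24966508 with 982 bp. The pileup at their top summits, the highest summit in each, was 33, 39.42 and 28.42 inside and 33.92, 33.92 and 33 outside, and these values overlap. In line 22, chr10:17399900-17400904 (1005 bp), chr8:3941511-3942528 (1018 bp) and chr10:12498430-12499447 (1018 bp) lay inside, with pileups of 33, 34 and 33. Outside it were chr6:24261532-24262514 (983 bp), chr4:11585963-11586938 (976 bp) and chr1:23470354-23471320 (967 bp), with pileups of 31, 32 and 34. The first of these covers the same site as the 1007 bp region of line 16, so that this site was long in line 16 and fell 17 bp short of the limit in line 22.

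**Figure D1:**
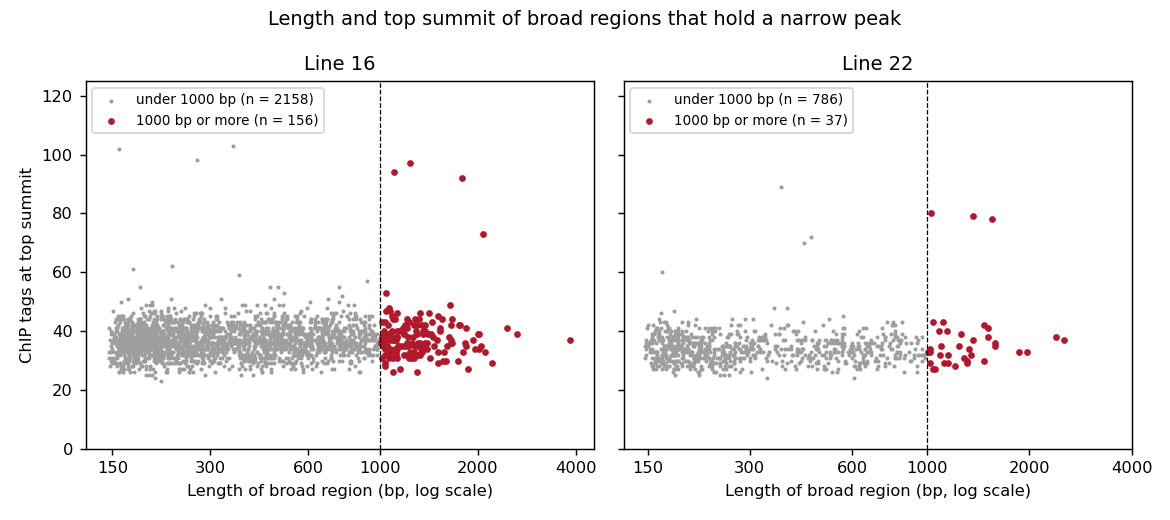
Each point is a broad region with a narrow peak, with its length in bp on the x axis (log scale) and the tags at its top summit on the y axis (linear scale), in line 16 and line 22. The dashed line marks 1000 bp. Most long regions, to its right, sit at the same heights as the short ones, around medians of 37 and 34 tags, and 4 of line 16 and 3 of line 22 reach 60 tags or more.

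Most long regions held a single narrow peak. In line 16, 142 held 1 narrow peak, 13 held 2 and 1 held 3, so that 14 of 156 (8.97%, 5.42 to 14.5%) had more than 1. In line 22, 36 held 1 and 1 held 2, or 2.70% (0.479 to 13.8%) with more than 1. Among short regions 1.81% of 2158 and 1.40% of 786 held more than 1. These shares are a description, since a longer region has more room for a second peak. Per length, long regions held 0.811 narrow peaks per kb in line 16 and 0.766 in line 22, against 2.68 and 2.87 in short regions. That order was fixed by the choice of regions, since nearly all regions of both groups held exactly 1 peak.

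The summits within a long region stood further apart than those within a short one. The 15 spacings between neighbouring summits in the long regions of line 16 ran from 219 to 2623 bp with a median of 603 bp, and 39 spacings in its short regions ran from 67 to 765 bp with a median of 380 bp. The ranges overlap, and a short region cannot hold a wider spacing. Between the narrow peaks themselves a median of 413 bp was left in the long regions and 157 bp in the short ones. In line 22 the only spacing in a long region was 468 bp, against a median of 347 bp over 11 spacings in short regions.

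The region with the most narrow peaks was chr12:11948278-11949695 of line 16. Its 3 summits had 33, 46 and 44 tags and lay 709 and 451 bp apart. Their fold enrichment, the authors' value of the ChIP pileup against the local background, was 2.79, 2.70 and 2.76, so the 3 summits were close in enrichment, whereas the first was lower than the others in tags. The region of line 22 with 2 narrow peaks was chr7:4243117-4244697. It had summits of 31 and 36 tags with fold enrichments of 2.35 and 2.93, and both lay before the midpoint of the region.

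The remaining pairs of summits lay in 13 regions of line 16. The widest spacing, 2623 bp, was in the longest region, chr7:4752330-4756188, where the summits had 37 and 33 tags. Next came 1139 bp in chr9:18249254-18250904, with 37 and 32 tags, and the closest were 219 bp apart in chr8:15522837-15523854, with 36 and 31 tags. In these regions the heights were near each other, whereas the region with 3 narrow peaks had neighbouring summits of 33 and 46 tags. The largest gap in fold enrichment between summits of a region was in chr5:12436423-12438257, with 4.31 at the first and 2.84 at the second, 873 bp away. This region had 41 and 33 tags at its summits and overlapped no broad region of line 22. The regions named for their spacing or their gap in enrichment were picked after these values were seen. Of the 14 regions of line 16 with more than 1 narrow peak, 6 overlapped a broad region of line 22, as did the 1 of line 22 with line 16. Over all long regions of lines 16 and 22 the shares were 50 and 75.7%, and over all broad regions 20.2 and 36.5%. The regions with more than 1 narrow peak are too few to set against these.

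**Figure D2:**
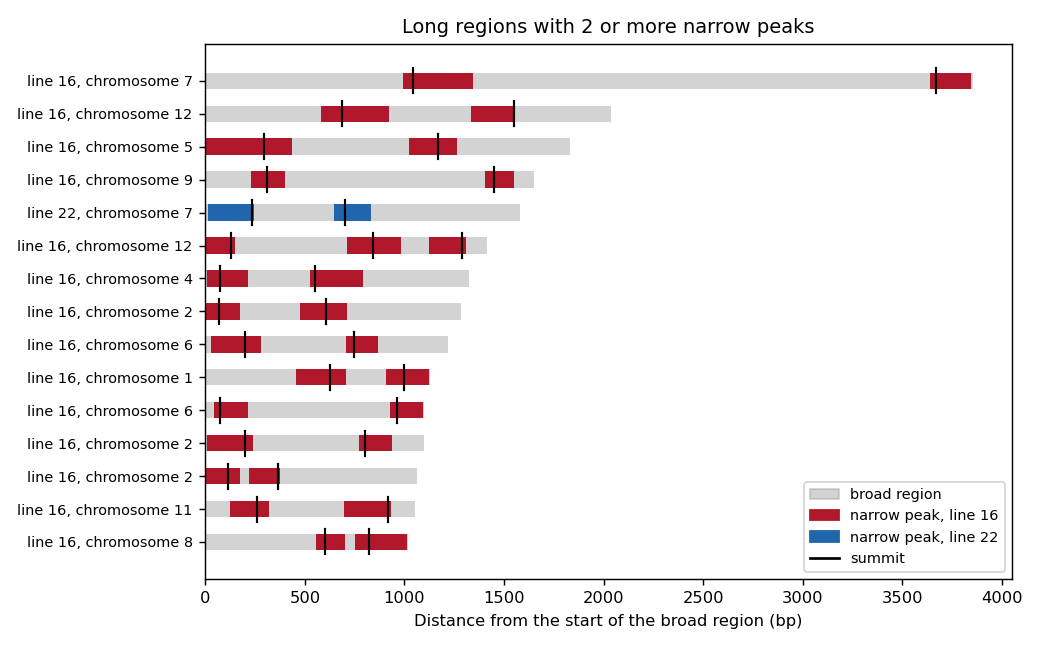
The 15 long regions with 2 or more narrow peaks are drawn to scale by row, with distance from the region's start in bp on the x axis. Bars show the broad region, boxes the narrow peaks and marks the summits. The neighbouring summits lie 219 to 2623 bp apart, and the longest region has its second summit near its far end.

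Narrow peaks took up little of a long region. The median share of the length inside narrow peaks was 15.6% in line 16, with a range of 6.88 to 99.6%, and 14.3% in line 22, with a range of 6.92 to 99.3%. Short regions had medians of 71.5 and 80.5%. In 121 of 156 long regions of line 16 and 30 of 37 of line 22 the share was under 20%. Only chr7:23484145-23485245 in line 16 and chr7:23484144-23485169 in line 22, the same site, were inside a narrow peak over more than 50% of their length. Its narrow peak spanned 1097 bp in line 16 and 1019 bp in line 22, whereas the next longest narrow peak that held the top summit of a long region spanned 434 and 414 bp. The narrow peak with the top summit was of similar size in long and short regions, with medians of 183.5 and 177 bp in line 16 and of 177 and 170 bp in line 22. Apart from the site on chromosome 7, most of the additional length of these regions was thus outside the narrow peaks, which describes the choice of regions.

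Height at the top summit was much the same in long and short regions. These values come from the comparison of ChIP and input that also set the length, and are given as a description. In line 16 the top summits of the 156 long regions had 26 to 97 tags with a median of 37, and those of the short regions 23 to 103 tags with a median of 37. In line 22 they had 27 to 80 tags with a median of 34 in long regions, and 24 to 89 tags with a median of 34 in short ones. The groups overlap over nearly their whole range. Fold enrichment at the top summit had medians of 2.67 and 2.68 in long and short regions of line 16, and of 2.65 in both groups of line 22. The −log10 q-value there had medians of 3.42 and 3.27 in line 16 and 3.10 and 3.08 in line 22.

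Averaged over the region, enrichment was slightly lower in the long regions. The mean fold enrichment of a region had a median of 2.24 in long and 2.32 in short regions of line 16, and of 2.25 and 2.30 in line 22. The mean −log10 q-value had medians of 1.82 and 1.999 in line 16 and 1.75 and 1.89 in line 22. Long regions that held no narrow peak had lower medians still, with a mean fold enrichment of 2.14 in line 16. These orders are a description, since the same comparison of ChIP and input set the lengths and the narrow peaks. Narrow peaks also filled a smaller share of long regions than of short ones.

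A few long regions stood well above the others in tags. Summits of 60 tags or more were in 4 of 156 long regions of line 16 (2.56%) and 5 of 2158 short ones (0.232%), and in 3 of 37 (8.11%) and 4 of 786 (0.509%) in line 22. The limit of 60 tags was not set beforehand, and these shares rest on few regions and are a description only. The highest in line 16, chr6:10405638-10406870, had 97 tags at a fold enrichment of 2.04, and chr7:23484145-23485245 had 94 tags at 7.48. These were followed by chr8:18415871-18417653 with 92 tags at 1.95 and chr6:3559131-3561201 with 73 tags at 2.06.

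In line 22 the high regions were chr7:23484144-23485169 with 80 tags at a fold enrichment of 6.42, chr6:10405702-10407068 with 79 at 1.87 and chr6:3092666-3094212 with 78 at 1.85. Apart from the site near position 23484145 on chromosome 7, the regions with many tags had fold enrichments under the medians of 2.67 and 2.65. Pileup divided by fold enrichment, a rough measure of the local background, reached 43.5 in line 16 and 42.3 in line 22, against medians of 12.7 and 12.9 over the long regions. The part of the local background in these heights was not tested. These 7 regions were singled out after their values were seen. The site on chromosome 7 and that of chr6:10405702-10407068 were high in both lines, so the 7 regions make up fewer separate sites. The site on chromosome 7 had a −log10 q-value of 40.3 in line 16 and 31.1 in line 22, where the next highest long regions had 8.28 and 6.23.

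The top summit lay toward an end more often in long regions than in short ones. It was in the outermost 20% of the length at either end in 87 of 156 regions of line 16 (55.8%, 47.9 to 63.3%) and in 21 of 37 of line 22 (56.8%, 40.9 to 71.3%). In short regions the shares were 28.6 and 29.4%. The middle 20% held the summit in 16.7 and 13.5% of long regions and in 26.1 and 25.7% of short ones. The summits were at both ends, with 39 summits in the first and 48 in the last 20% in line 16, and 9 and 12 in line 22. Summits spread evenly would put 20% in each of 5 equal parts. The first and last parts held 25 and 30.8% in line 16 and 24.3 and 32.4% of only 37 in line 22, and the departure from an even spread was not tested.

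In bp, the top summit had a median distance of 225.5 bp to the nearer edge and 1017 bp to the farther edge in the long regions of line 16, and of 205 and 990 bp in line 22. In short regions the medians were 86 and 212 bp in line 16 and 79 and 175.5 bp in line 22. A narrow peak filled most of a typical short region, so that positions within long and short regions are not fully comparable. By these medians, a long region extended about 1 kb from its top summit to the farther side. The nearer edge is the closer one by definition, and every long region was chosen for 1000 bp or more. Both the gap between these distances and their excess over short regions were thus in large part set by the choice. Whether the gap exceeds that of evenly spread summits was not tested.

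**Figure D3:**
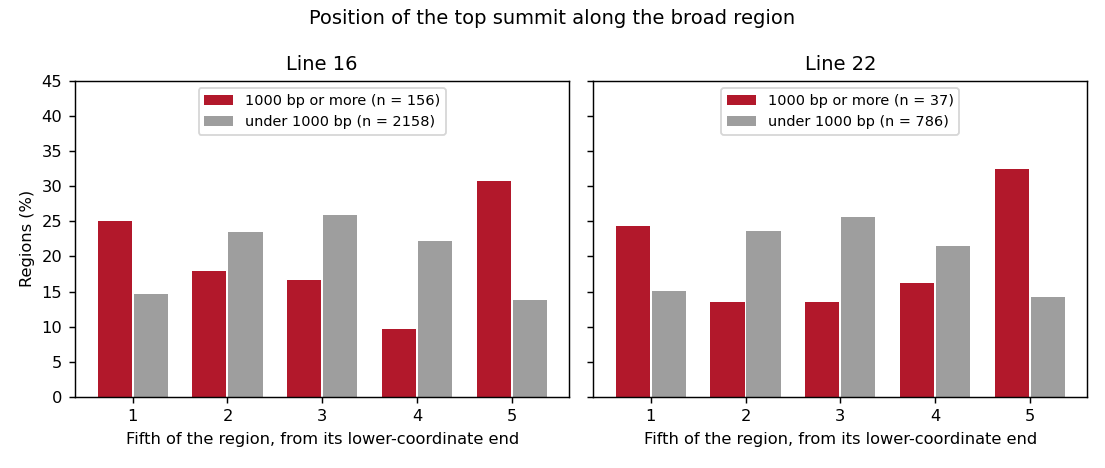
The y axis gives the percentage of regions and the x axis the position of the top summit, in 5 equal parts of the region from its start to its end, for long and short regions of each line. Among the long regions of line 16 the first and last parts hold 39 and 48 of 156 summits, and among those of line 22 they hold 9 and 12 of 37. In short regions the middle part holds the most.

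The other line's lists had no part in the choice of a line's long regions, and show how far these regions were found again. That the overlap between the lines grew with region length was known from earlier results on these lists, and the shares below are not independent support for it. A broad region of line 22 overlapped 78 of the 156 long regions of line 16 (50%, 42.2 to 57.8%) and 561 of its 2158 short regions (26.0%). The difference was 24.0 percentage points (16.02 to 32.0). Over all broad regions of line 16 the share was 20.2%. In the other direction, a broad region of line 16 overlapped 28 of the 37 long regions of line 22 (75.7%, 59.9 to 86.6%) and 44.3% of its short regions, a difference of 31.4 points (15.2 to 42.9). All broad regions of line 22 gave 36.5%.

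Narrow peaks of the other line were less frequent, but followed the same order. They overlapped 22 of 156 long regions of line 16 (14.1%, 9.5 to 20.4%) and 4.12% of the short ones, a difference of 9.98 points (5.29 to 16.4), with 2.75% over all broad regions. In line 22 they overlapped 11 of 37 long regions (29.7%, 17.5 to 45.8%) and 12.3% of the short ones, a difference of 17.4 points (4.90 to 33.6), with 8.4% over all. The shares of the lines cannot be set against each other, because line 16 had more regions to overlap with. Narrow peaks are held by broad regions of their own line, and both directions draw on the same lists. The differences for narrow and broad partners in the lines are therefore not independent of each other.

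A partner that was itself 1000 bp or longer was found for 16 of the long regions of line 16 (10.3%) and for 0.880% of its short regions, a difference of 9.38 points (5.50 to 15.1). Over all broad regions it was 1.09%. In line 22 such a partner was found for 10 of 37 (27.0%) and for 3.69% of short regions, a difference of 23.3 points (11.6 to 39.3), with 3.29% over all. The long partner held no narrow peak of its own for 9 of these regions of line 16 and 3 of line 22. An example was chr9:3114348-3115658 of line 16, which lay wholly inside a region of line 22 of 3152 bp that held no narrow peak. This region was singled out after its values were seen.

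A longer interval is more easily touched by another. Each summit was therefore also given a window of the same width, 100 bp to each side of the top summit. A broad region of line 22 lay within the window in 58 of 156 long regions of line 16 (37.2%, 30.0 to 44.99%) and in 23.3% of short ones, a difference of 13.9 points (6.50 to 21.9). All regions with a narrow peak gave 24.2%. In line 22 the shares were 54.1% (20 of 37) and 39.9%, with 40.6% over all regions with a narrow peak. The interval of that difference, 14.1 points, ran from -1.94 to 29.4 and included 0.

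A narrow peak of the other line lay within the window in 13 long regions of line 16 (8.33%) and in 3.38% of short ones, a difference of 4.95 points (1.45 to 10.4), with 3.72% over all regions with a narrow peak. In line 22 it did so in 7 long regions (18.9%) and 10.4% of short ones, a difference of 8.49 points (-1.24 to 23.9), with 10.8% over all. With equal windows the differences were thus smaller than over the whole regions, and in line 22 their intervals included 0. For broad partners in line 22 this depended on the width, since 250 bp to each side gave 18.9 points (2.47 to 33.1).

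Shares by length class place the limit of 1000 bp among neighbouring lengths. Overlap with a broad region of line 22 was found for 16.1% of line 16 regions under 250 bp, 27.4% from 250 to under 500 bp, 38.5% from 500 to under 750 bp and 40% from 750 to under 1000 bp. It was 44.9% from 1000 to under 1250 bp, 47.5% from 1250 to under 1500 bp and 63.2% from 1500 bp. In line 22 the shares of the same classes were 32.0, 48.7, 63.2, 63.5, 77.8, 70 and 77.8%, with 18, 10 and 9 regions in the last 3, so that the rise was not steady. Within the window at the summit, the share in line 16 was 33.2% from 500 to under 750 bp, 27.0% from 750 to under 1000 bp and 37.2% in the next class. For narrow partners in line 16 the shares were 2.61, 5.03, 5.88 and 3.78% in the 4 classes under 1000 bp, and 16.7, 12.5 and 10.5% in the 3 classes above, which held 78, 40 and 38 regions. In line 22 they were 10.8, 13.7, 12.8 and 15.9% under 1000 bp, and 27.8, 30 and 33.3% above. With a limit of 800 bp the difference for narrow partners was 4.77 points (1.83 to 8.69) in line 16 and 12.2 points (3.89 to 22.6) in line 22. Whether the shares step at 1000 bp was not tested.

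When the short regions were restricted to 500 bp to under 1000 bp, a choice made after these shares were seen, the difference for broad partners was 11.0 points (2.23 to 19.7) in line 16 and 12.4 points (-4.72 to 25.4) in line 22. For narrow partners it was 8.91 points (3.83 to 15.4) and 15.9 points (2.41 to 32.5). The difference for narrow partners was therefore nearly as large against the longest short regions as against all of them, and that for broad partners was not. Within the window at the summit, the difference for broad partners was 6.05 points (-2.15 to 14.7) in line 16 and 5.12 points (-12.1 to 21.6) in line 22, so that both intervals then included 0.

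**Figure D4:**
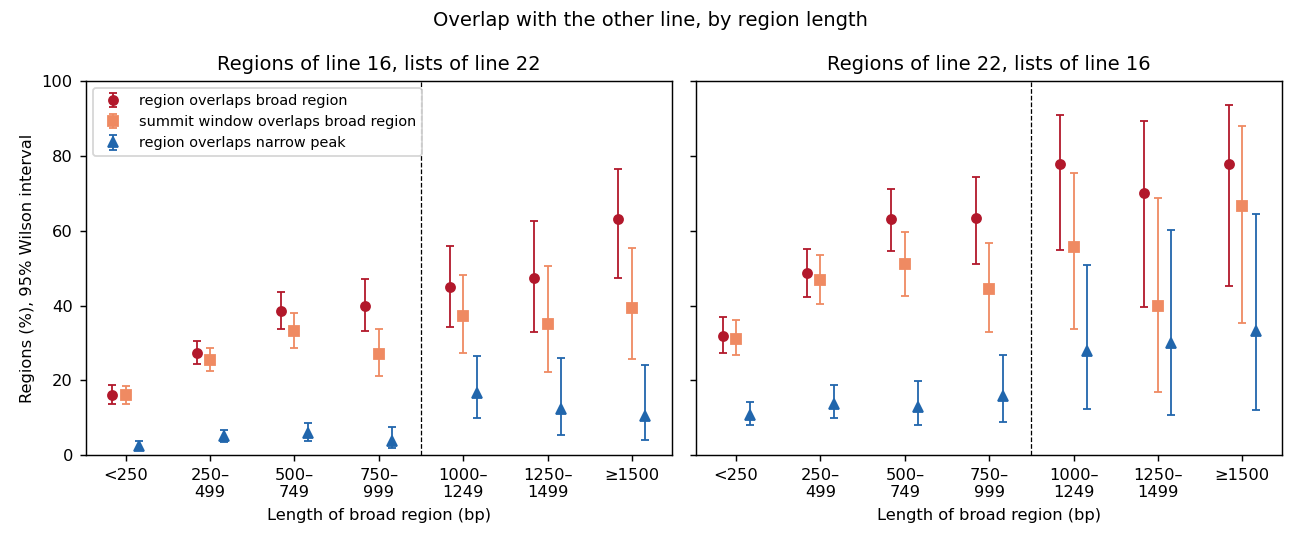
The y axis gives the percentage of regions that overlapped the other line and the x axis the length class of the region in bp, for broad regions and narrow peaks of the other line as partners and for broad regions within 100 bp of the top summit, with 95% Wilson intervals as bars. The dashed line marks 1000 bp. In line 16 the overlap with broad regions climbs from 16.1% in the shortest to 63.2% in the longest class. The overlap with narrow peaks in line 16 is 3.78% just under 1000 bp, then 16.7, 12.5 and 10.5% in the 3 classes above. In line 22 it is 15.9% just under 1000 bp, then 27.8, 30 and 33.3%, from few regions.

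Where a long region had a partner, the partner covered part of it. The share of the region covered by partners had a median of 37.3% over the 78 long regions of line 16 with a partner and 52.7% over the 28 of line 22, against 70.6 and 76.2% in short regions with a partner. A partner of a given length covers less of a longer region, so this order follows in large part from the choice of length. The longest partner measured 561.5 bp at the median for the long regions of line 16 and 862 bp for those of line 22. The highest mean fold enrichment among the partners of a region had medians of 2.18 and 2.23 for long regions, against 2.15 and 2.17 for short ones.

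The partner did not always lie at the top summit. It reached the window of 100 bp around the summit in 58 of 78 long regions of line 16 with a partner (74.4%, 63.7 to 82.7%) and in 20 of 28 of line 22 (71.4%, 52.9 to 84.7%), and in 89.1 and 89.9% of the short regions with a partner. The window spans most of a typical short region and a small part of a long one, so this order follows in large part from length. In 20 long regions of line 16 and 8 of line 22 the other line was enriched only elsewhere in the region. A pair of separate partners was found in 6 long regions of line 16 (3.85%) and 1 of line 22 (2.70%), and no long region had more. Over all broad regions the shares were 0.0978 and 0.103%, and over long regions without a narrow peak they were 1.23 and 3.41%.

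Counted in bases, broad regions of line 22 covered 21.9% of the long regions of line 16, 19.0% of its short regions and 13.8% of all its broad regions. Broad regions of line 16 covered 42.3% of the long regions of line 22, 33.8% of its short regions and 25.7% of all. Per base the long and short regions were thus closer to each other than when counted by region. In the flanks, from 1 to 5 kb outside the regions, the other line covered 1.80% beside long and 1.24% beside short regions of line 16, and 3.47 and 2.28% in line 22. Coverage fell off sharply outside the regions in both groups.

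At 7 sites a long region of line 16 overlapped a long region of line 22, which is 4.49% of the long regions of line 16 and 18.9% of those of line 22. A partner of 1000 bp or more, with or without a narrow peak, was found for 10.3 and 27.0% of the long regions. It was found for 4.41 and 13.6% of those without a narrow peak, and for 1.09 and 3.29% of all broad regions. With the 7 sites merged, the 193 regions make up 186 separate sites. The overlap covered at least 62.1% of each region, and the narrow peaks of the lines overlapped at 4 of the 7 sites.

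The site with the strongest enrichment was on chromosome 7, where chr7:23484145-23485245 of line 16 and chr7:23484144-23485169 of line 22 started 1 bp apart and ended 76 bp apart. The mean fold enrichment over the region was 4.23 and 3.26, where the second highest long regions had 2.75 and 2.61. Its top summits lay 353 bp apart within a narrow peak that filled nearly the whole region in both lines. A second site on this chromosome was chr7:4243089-4244622 in line 16 and chr7:4243117-4244697 in line 22. It had 1 narrow peak in line 16 and 2 in line 22, with top summits of 41 and 36 tags that lay 113 bp apart.

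On chromosome 6, chr6:10405638-10406870 of line 16 and chr6:10405702-10407068 of line 22 had the highest and the second highest summit among the long regions of their lines, with 97 and 79 tags, 104 bp apart. Fold enrichment there was 2.04 and 1.87. The site on chromosome 12 joined the region with 3 narrow peaks in line 16 to chr12:11948326-11949796 in line 22, which held 1 narrow peak with 42 tags and a fold enrichment of 3.41. The top summits lay 566 bp apart, and the narrow peak of line 22 overlapped the last of the 3 narrow peaks of line 16.

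At the other 3 sites the top summit lay near opposite ends of the region in the lines. On chromosome 4, chr4:10267227-10268276 of line 16 had its summit 67 bp from its end, and chr4:10267141-10268293 of line 22 had it 92 bp from its start, 976 bp away. Both had a similar height, with 34 and 32 tags, and similar fold enrichments of 3.56 and 3.51. On chromosome 9, the summits of chr9:1504090-1505190 in line 16 and chr9:1503868-1505174 in line 22 lay 803 bp apart, with 37 and 29 tags. The summits of chr1:7648668-7649885 in line 16 and chr1:7648049-7650009 in line 22 lay 1064 bp apart, with 38 and 33 tags. There the summit of line 22 was outside the region of line 16, which made up 62.1% of the region of line 22. At these 3 sites the broad regions of the lines overlapped while their narrow peaks did not.

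**Figure D5:**
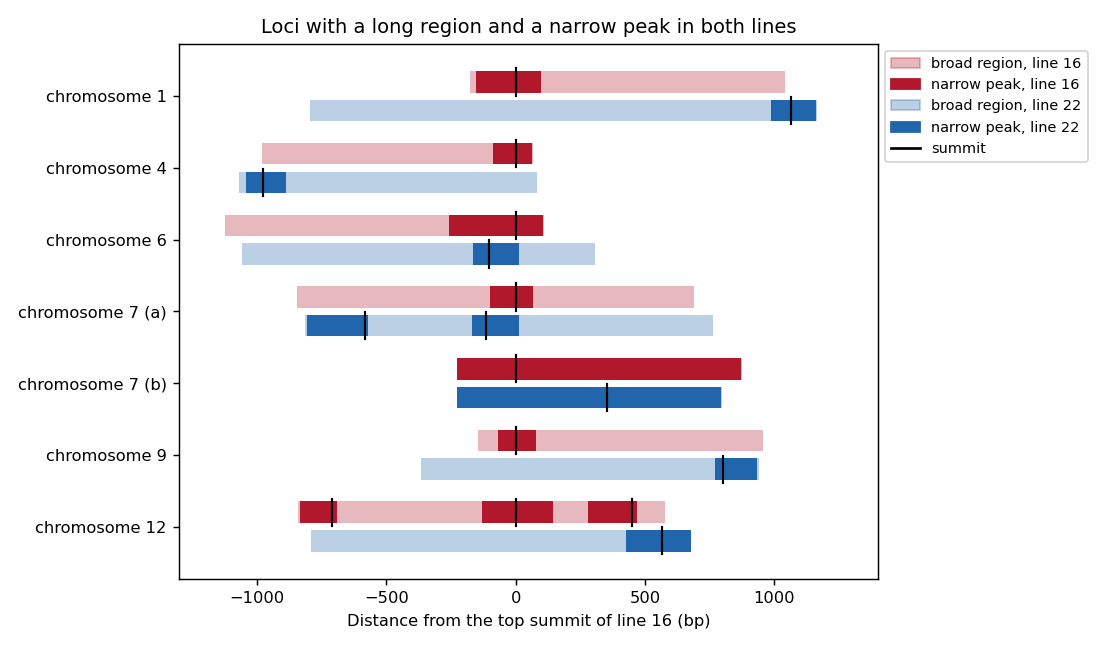
The 7 sites long in both lines are drawn to scale, with distance from the top summit of line 16 in bp on the x axis. Bars are broad regions, boxes narrow peaks and marks summits, with line 16 and line 22 in separate rows at each site. The top summits lie 104 to 1064 bp apart, and at 3 sites they are at opposite ends.

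Of the regions of 2000 bp or more, 8 of 9 in line 16 and 1 of 2 in line 22 had a partner in the other line. The shares were 50 and 75.7% over all long regions and 20.2 and 36.5% over all broad regions. These counts are small, and so long an interval is more easily touched by another. The longest of line 16, chr7:4752330-4756188 with 3859 bp, overlapped 2 broad regions of line 22, which covered 27.8% of it and left both of its summits outside. Then came chr4:28205530-28208173 (2644 bp) and chr12:15656908-15659363 (2456 bp), each with 2 partners and a narrow peak of line 22, covered over 22.6 and 52.4%. The regions chr12:25614074-25616288 (2215 bp) and chr11:19862457-19864560 (2104 bp) had 2 and 1 partners that covered 38.2 and 13.5%. None of these 5 had a partner of 1000 bp or more.

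In line 22 the longest was chr12:364961-367487 with 2527 bp, which a region of line 16 of 1697 bp covered over 50.3%. The next, chr4:5818430-5820829 with 2400 bp, a summit of 38 tags and a fold enrichment of 2.58, had no partner in line 16. It was followed by chr1:7648049-7650009 (1961 bp), covered over 62.1%, by chr11:9022880-9024748 (1869 bp), with 2 partners over 40.8%, and by chr3:20217791-20219373 (1583 bp), covered over 46.2%. Of these 5, the first and the third overlapped a region of line 16 of 1000 bp or more.

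The long regions were spread over all 12 chromosomes. In line 16 the number ran from 8 on chromosome 5 to 18 on chromosome 1. Per Mb this was lowest on chromosome 5, at 0.267, and highest on chromosome 9, at 0.567, with 0.418 in all. In line 22 there were 1 to 6 per chromosome and 0.0992 per Mb in all. They were single for the most part. The gap to the nearest long region of the same line had a median of 602176 bp in line 16, and in line 22 the closest pair was 29491 bp apart.

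Within 10 kb of another lay only 3 long regions, all of line 16. They were chr1:7644977-7646105, chr1:7646802-7648029 and chr1:7648668-7649885, with gaps of 696 and 638 bp between them and summits of 38, 32 and 38 tags. The first held 2 narrow peaks, and the last of them is the site on chromosome 1 that was long in both lines. The other regions of this run overlapped no broad region of line 22. The outermost 10% of the chromosomes at either end held 17.9% of long and 16.03% of short regions in line 16, and 16.2 and 15.5% in line 22, so that long and short regions differed by less than the intervals of their shares.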

How the data were processed

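Per the labels and methods, the authors used Bowtie2 for alignment to MSU7.0 and MACS 2.0.10.20131216 for peaks of each line, each ChIP library against its own input, at a q-value of 0.05 for narrow peaks and 0.1 for broad regions, keeping 1 tag per position. The deposited pileup is a signal, the ChIP tags stacked at a summit after scaling. The deposited −log10 q-values and the deposited fold enrichment, a ratio to the local background, are those of the authors' MACS run. The headings name the lines, whereas the labels number the libraries only. The pileup columns of the broad lists held negative numbers and were not used. Region and narrow peak overlaps (1 bp) were computed in Python 3.11.15 (numpy 2.4.6, pandas 2.3.3), intervals with scipy 1.17.1, and plots with matplotlib 3.10.9. The functions were tested on simulated data and against bedtools 2.31.1. No test with a P-value was run. The members and named regions were chosen with earlier results of these data known. Named were, per line, the 5 longest members, those with most narrow peaks, 3 regions on each side of 1000 bp and all members long in both lines. The planned results on genes and motifs were not run. Alternatives were lengths of 800 and 1500 bp, q-values of 0.01 and 0.001, an overlap of 50%, windows of 50 and 250 bp, ranking summits by q-value, merging close summits and each line alone, and short regions of 500 to under 1000 bp, added after seeing the data.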

Additional observations from a re-analysis of the deposited data

How the results depend on the processing

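Of 89 alternatives set beforehand, 72 kept the direction and the side of the limit, or stayed within the spread used for that value. The number of long regions moved with the rule by construction: 290 in line 16 and 83 in line 22 from 800 bp, 38 and 9 from 1500 bp, and 96 and 21 with narrow peaks under a q-value of 0.001. With each line left out in turn, 37 to 156 of the 193 were left. Sites long in both lines numbered 11 from 800 bp and 1 from 1500 bp. Under a q-value of 0.001, 5.21% of the long regions of line 16 and 0 of 21 in line 22 (upper limit 15.5%) held more than 1 narrow peak. A broad region of line 22 overlapped 63.2% of the line 16 regions of 1500 bp or more, and a narrow peak 8.97% of those of 800 bp or more. From 1500 bp, the interval of the difference from shorter regions included 0 for narrow partners in line 16 (5.83 points, -0.601 to 19.5), and in line 22 for narrow (20.4 points, -0.985 to 51.8) and broad partners (32.4 points, -0.254 to 48.7), where only 38 and 9 regions remained. For line 22 the difference at the summit with broad partners was 18.9 points (2.47 to 33.1) with 250 bp to each side, above 0. Against short regions of 500 to under 1000 bp, added after seeing the data, the interval included 0 for broad partners at the summit in line 16 (6.05 points, -2.15 to 14.7) and for broad partners in line 22 (12.4 points, -4.72 to 25.4); the cause was not tested. The differences between long and short regions were above 0 in the 32 alternatives on them that were set beforehand, with intervals above 0 in 24. Many of these compared whole regions, where a longer interval is more easily touched, and all reuse the same lists. This tally is therefore no measure of support. With windows at the summit in line 22, only broad partners with 250 bp to each side gave an interval above 0. No paired analysis was possible because each ChIP library was already set against the input of its own line in the peak calls, and no test between libraries was run. Alternatives on genes and sequence were not run. Sites that narrowly missed the cutoff in a line count as not shared, and the part of depth in this was not tested.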

Other observations

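Long broad regions without a narrow peak of their own line were more numerous than those with one, at 408 in line 16 and 176 in line 22. Their median length was 1150 bp in line 16. A broad region of the other line overlapped 33.1% of them in line 16 and 56.2% in line 22, which lay between the shares of short and long regions with a narrow peak in both lines. A narrow peak of line 22 overlapped 3.19% of them in line 16 (1.87 to 5.37%), against 14.1% of the long regions with a narrow peak (9.5 to 20.4%). In line 22 these shares were 13.1% (8.87 to 18.8%) and 29.7% (17.5 to 45.8%). Counted in bases, the other line covered 13.7% of the long regions without a narrow peak in line 16 and 25.2% in line 22, close to the 12.3 and 24.4% of short regions without a narrow peak.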
